A study of Bos taurus with 16 samples.

Results

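The mitochondrial ribosomal protein genes are described here in RNA of bovine blastocysts whose mothers were fed a control or a methionine-rich diet. The genes were taken by name, as every locus of the count tables whose gene name begins with MRPL or MRPS followed by a number. This gave 71 of 22358 loci, 45 named for the large subunit and 26 named for the small subunit. No member shared its locus with another name, and none was listed at more than 1 locus.

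RNA-Seq was used on pools of expanded blastocysts from 8 Holstein cows, 4 per diet, with 2 pools per cow and therefore 8 control and 8 methionine-rich pools. Both diets had the same base, and the methionine-rich diet also contained rumen-protected methionine, from calving until the embryos were collected. All cows were superovulated, inseminated with semen of high-fertility sires and flushed 6 days after ovulation, and the cows sequenced were selected for the number and quality of their embryos. The sample labels call the embryos IVF, which the methods do not describe. A pool held few blastocysts and their number differed between pools, so its RNA went through several rounds of linear amplification before the library was made. Pools are named by diet, cow and pool, so that C1.1 is the first pool of control cow 1 and M5.1 the first pool of methionine-rich cow 5. By the study's account, C4.1, C4.2 and M8.2 held 1 blastocyst each, and most methionine-rich pools held more blastocysts than any control pool. Most methionine-rich pools also had a lower quality number of the amplified RNA than any control pool for which the study gives one. RNA quality entered no fit here, and its part in the values was not tested.

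Pool C3.2 does not enter the comparison, because few of its reads lay on exons. The study made the same choice. The other 15 pools had 5624126 to 7826542 counts each, against 1745048 in C3.2. Values are given as CPM, the counts of a gene scaled to the same total count in every pool. A floor of 3 counts was worth 0.383 to 0.533 CPM in the 15 pools. Of 14 blastocyst marker genes, 13 had counts in each diet and SOX17 was at 0. Among markers of other cell types, those of leukocytes stood apart in pool C2.1, where 12 such genes summed to 2371.9 CPM. The median of this sum was 6.6 CPM over the control pools compared, its highest value in a methionine-rich pool was 7.1 CPM, and C3.2 had 168 CPM. Of the 12 genes, 9 had counts in the control pools compared, while CD3D, CD3E and CD3G had none. In these bulk pools, fewer cells of a type and less RNA per cell cannot be told apart.

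Mitochondria carry their own ribosome, which makes the few proteins encoded by mitochondrial DNA, all of them parts of the oxidative phosphorylation complexes. Its RNAs come from mitochondrial DNA, whereas every one of its proteins is encoded in the nucleus, made in the cytosol and imported. The small subunit reads the messenger RNA and the large subunit joins the amino acids. Some of the proteins have a counterpart in bacterial ribosomes and others occur only in mitochondria. Embryos inherit their mitochondria from the oocyte, and the blastocyst is the stage at which oxidative phosphorylation is known to increase.

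All 71 members passed the filter of a summed CPM of 15 over the 15 pools, which 10519 loci passed. The members had at least 10 counts in every one of the 15 pools at 69 loci, 97.2% of the members against 47.2% of all loci tested. A median of at least 50 counts was reached by 66 members. No member had 40% or more of its counts in 1 pool, whereas 17.5% of all loci tested did. The plot of all members by pool shows these levels.

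**Figure D1:**
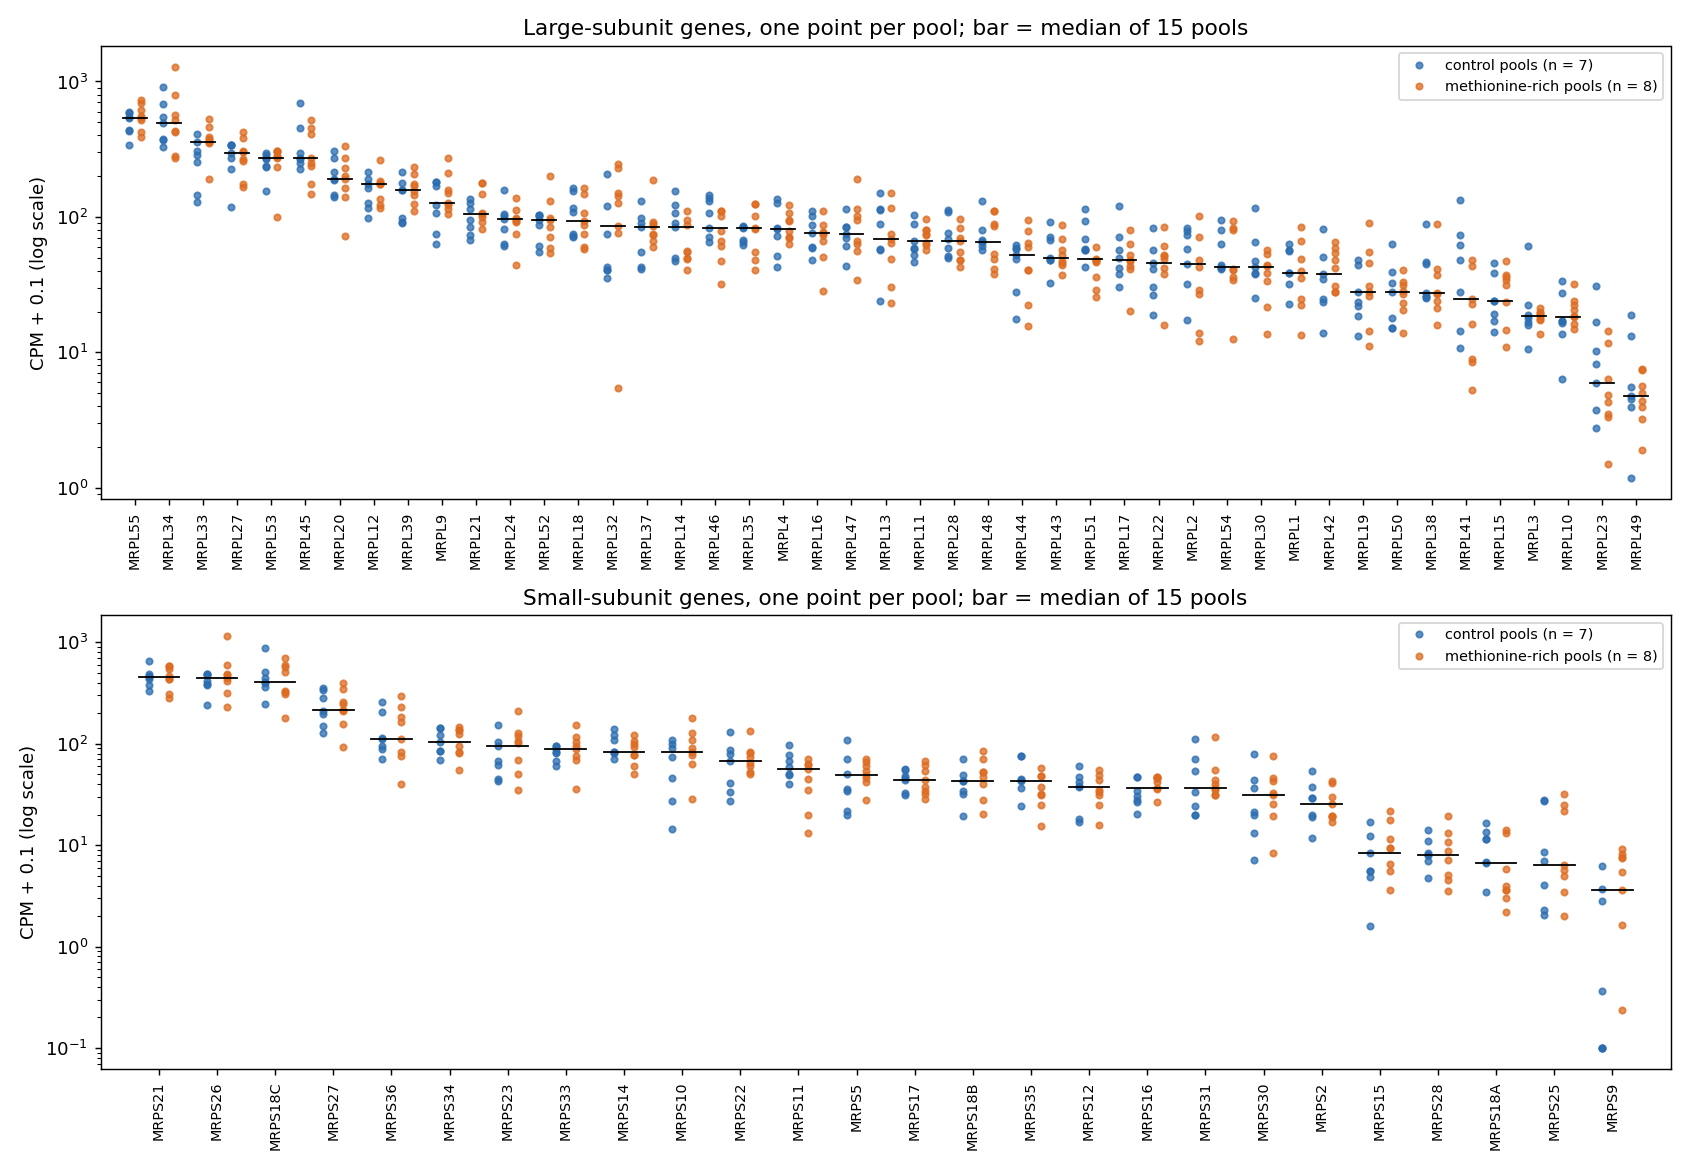
CPM plus 0.1 on a log scale in each of the 7 control and 8 methionine-rich pools (points) for the 45 large-subunit and 26 small-subunit genes, ordered by their median over the 15 pools (bar). MRPL55 and MRPS21 lead their subunits, MRPL49 and MRPS9 come last, and the points of the 2 diets overlap in every gene.

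Among large-subunit genes, MRPL55, a protein of the animal mitochondrial ribosome, had the highest median over the 15 pools, 542 CPM. It had 341, 542 and 592 CPM (lowest, median and highest) in the 7 control pools and 392, 547 and 735 CPM in the 8 methionine-rich pools. MRPL34, whose protein has a small bacterial counterpart, had 329, 494 and 915 CPM in control pools and 271, 473 and 1289.7 CPM in methionine-rich pools, and its 15-pool mean of 552 CPM was above the 530 CPM of MRPL55. The next by median were MRPL33, MRPL27 and MRPL53, with 15-pool medians of 356, 294 and 273 CPM. MRPL27 is the counterpart of a bacterial protein at the site of peptide bond formation, and MRPL53 occurs only in mitochondria.

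Of the small-subunit genes, MRPS21 had 328, 458 and 655 CPM in control pools and 281, 450 and 587 CPM in methionine-rich pools. MRPS26 and MRPS18C followed with 15-pool medians of 448 and 406 CPM. MRPS27, an RNA-binding protein of the small subunit, had a median of 213 CPM. MRPS36, which is named as a ribosomal protein but is now known as a component of the oxoglutarate dehydrogenase complex, had a median of 112 CPM. It was kept because the choice was by name. All of these genes overlapped between the diets.

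At the low end, the 15-pool medians of MRPL10, MRPL23 and MRPL49 were 18.1, 5.88 and 4.65 CPM. MRPL10 anchors the stalk of the large subunit, and MRPL23 has a bacterial counterpart at the exit of the peptide tunnel. The small-subunit genes with the lowest medians were MRPS18A, MRPS25 and MRPS9, with medians of 6.59, 6.33 and 3.53 CPM. These are ranks of reads taken and not of transcripts, since transcript lengths were not used here and longer transcripts take more reads.

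The reads were spread unevenly over the members. Over the 15 pools, MRPL34, MRPL55, MRPS26, MRPS21 and MRPS18C, the 5 genes with the highest means, took a median of 31.7% of the members' reads, with a range of 24.2% to 40.4%. The 10 genes with the highest means took a median of 50.3% (42.3% to 55.6%). An entry of the RefSeq gene table was found for all 71 members, and in 18 of them the gene's span overlaps that of another gene. The overlapping ones include MRPL3, MRPL23, MRPL49, MRPL51, MRPL55, MRPS18C, MRPS25, MRPS27 and MRPS31. The strand setting of the counting is not given in the sources used here, and whether exons of these genes overlap was not examined, so how far the overlap touches their counts was not tested.

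MRPS18A, MRPS18B and MRPS18C are related genes that each resemble the bacterial S18 protein. MRPS18C, the S18 protein of the small subunit itself, had 248, 406 and 884 CPM in control pools and 177, 418 and 695 CPM in methionine-rich pools. MRPS18B, which sits elsewhere in the small subunit, had 19.1, 42.3 and 69.9 CPM in control pools and 20.4, 49.6 and 84.2 CPM in methionine-rich pools. MRPS18A, which despite its name sits in the large subunit, had 3.38, 11.4 and 16.5 CPM in control pools and 2.09, 3.69 and 13.9 CPM in methionine-rich pools. The ranges of the 3 genes did not overlap one another in the 15 pools, while each gene overlapped between the diets.

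The summed reads of the 71 members varied little between pools. The sum was 6568.7, 7737.1 and 8142.5 CPM (lowest, median and highest) in the 7 control pools, with a mean of 7596.0 ± 515 CPM (SD, n = 7). It was 6727.7, 8124.3 and 8528.8 CPM in the 8 methionine-rich pools, with a mean of 7921.5 ± 611 CPM (SD, n = 8). The diets overlapped over nearly their whole ranges, and the lowest sum was in C2.1, the pool with the leukocyte markers. The part of those cells in its value was not tested. On cow means, the control cows had 6950.6 to 7905.6 CPM and the methionine-rich cows 7516.4 to 8475.7 CPM.

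The coefficient of variation (CV, the SD as a percentage of the mean) of the sum over the 15 pools was 7.38%. The SD of the sum was 573 CPM, close to the 536 CPM given by the root of the members' summed variances. The summed large-subunit genes had an SD of 441 CPM against 415 CPM from their own variances. For the small subunit these were 265 and 339 CPM. The variance of the sum of all members was 1.14 times the sum of their variances.

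**Figure D2:**
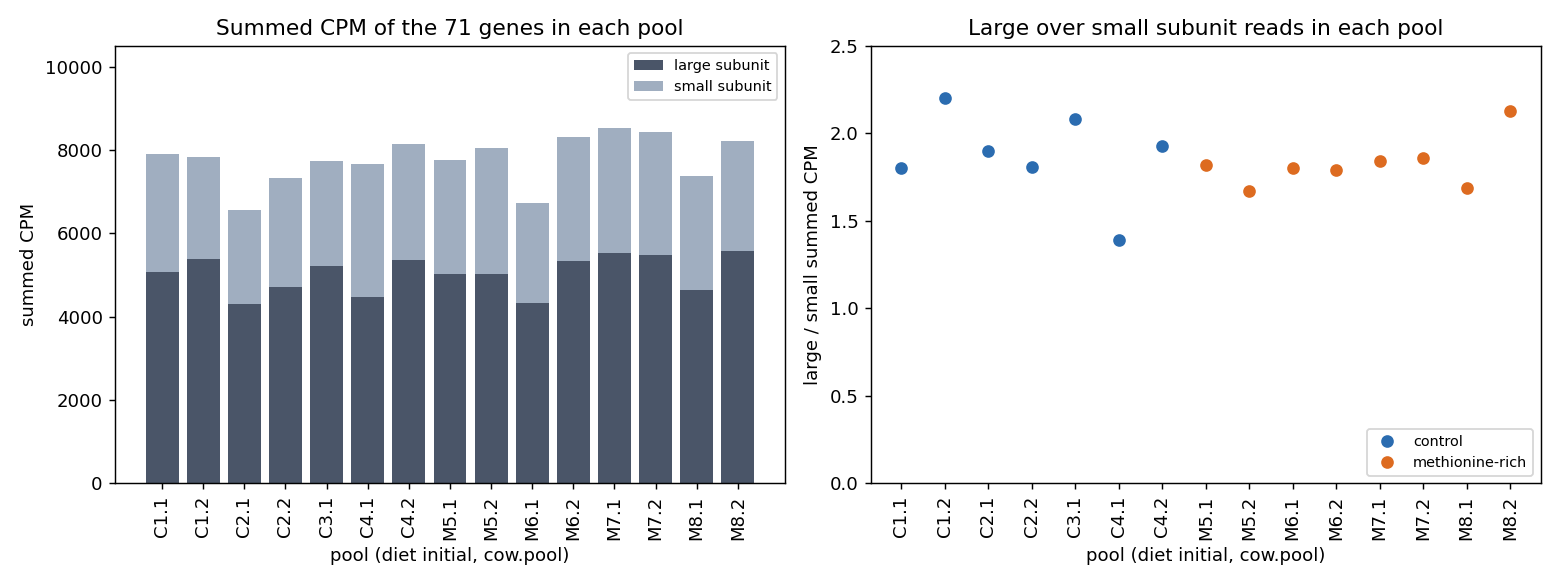
Left, summed CPM of the large-subunit (dark) and small-subunit (light) genes in each of the 15 pools. Right, the ratio of the large to the small sum in each pool, from 1.39 in C4.1 to 2.2 in C1.2. The sums lie between 6568.7 and 8528.8 CPM and the diets overlap in both panels.

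The large-subunit genes summed to 4302.4, 5076.3 and 5382.2 CPM in control pools and to 4327.4, 5174.4 and 5584.5 CPM in methionine-rich pools. The small-subunit genes summed to 2266.3, 2613.8 and 3208.9 CPM in control pools and to 2400.3, 2848.8 and 3015.2 CPM in methionine-rich pools. The ratio of the large to the small sum was 1.87 ± 0.257 (SD, n = 7) in control pools and 1.82 ± 0.14 (SD, n = 8) in methionine-rich pools. The difference of these means was smaller than either SD. The lowest ratio, 1.39, was in C4.1, a pool of 1 blastocyst, where MRPS18C had its highest value of 884 CPM. As the ratio is one of reads and not per length, it does not count subunits. The large sum also holds more genes, 45 against 26. Over the 15 pools the mean ratio was 1.85, and 1.89 with MRPS18A and MRPS30 counted as large.

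Individually, the members varied more than their sum but less than most loci. The median CV of CPM over the 15 pools was 42.5% for the members, against 80.3% for all loci tested. The members also took more reads, as the median of the mean CPM was 70.7 for the members and 11.6 for all loci tested. Set against loci of the same mean CPM, the members' CV had a median percentile of 22.7, and 54 of 71 members lay below the median of their class. The CV was under 30% in 11 members, between 30% and 60% in 49 and at least 60% in 11. The large- and small-subunit genes had median CVs of 42.1% and 42.7%.

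The steadiest members with a median of at least 50 counts were MRPL55 (CV 20.6%), MRPL53 (22.6%), MRPL11 (23.2%), MRPS21 (23.3%) and MRPS16 (24.9%). MRPL11 forms the base of the stalk on the large subunit and MRPS16 is a small-subunit protein with a bacterial counterpart. MRPL11 ranged from 46 to 103 CPM and MRPS16 from 20.1 to 47.3 CPM. Each of these 5 genes lay within the lowest 5% of CVs for its level.

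The most variable members at that count were MRPL41 (CV 93.6%), MRPL32 (69.5%), MRPS30 (64.5%), MRPL19 (62.7%) and MRPS31 (61.9%). MRPL32, whose protein is cut by a mitochondrial protease before it joins the ribosome, had 5.32 CPM in M7.2 and 245 CPM in M5.2. MRPS30, which also sits in the large subunit despite its name, ranged from 7.09 to 78.5 CPM. MRPS31 had 110 CPM in the highest control pool and 115 CPM in the highest methionine-rich pool, against diet medians of 33.4 and 37.9 CPM. High values of MRPL32, MRPS30, MRPL19 and MRPS31 occurred in pools of both diets. MRPL41 was highest in control pool C1.1, at 134 CPM, against 48.2 CPM in its highest methionine-rich pool.

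The SD of log2 CPM within cows had a median of 0.6 over the members, and that between cow means a median of 0.47. For all loci tested these medians were 1.14 and 0.87. A mean of 2 pools varies less than a single pool, so these SDs do not rank the spread within cows against that between them. The 2 pools of a cow share their mother and diet but hold different embryos and were amplified separately, and these sources of spread cannot be told apart.

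**Figure D3:**
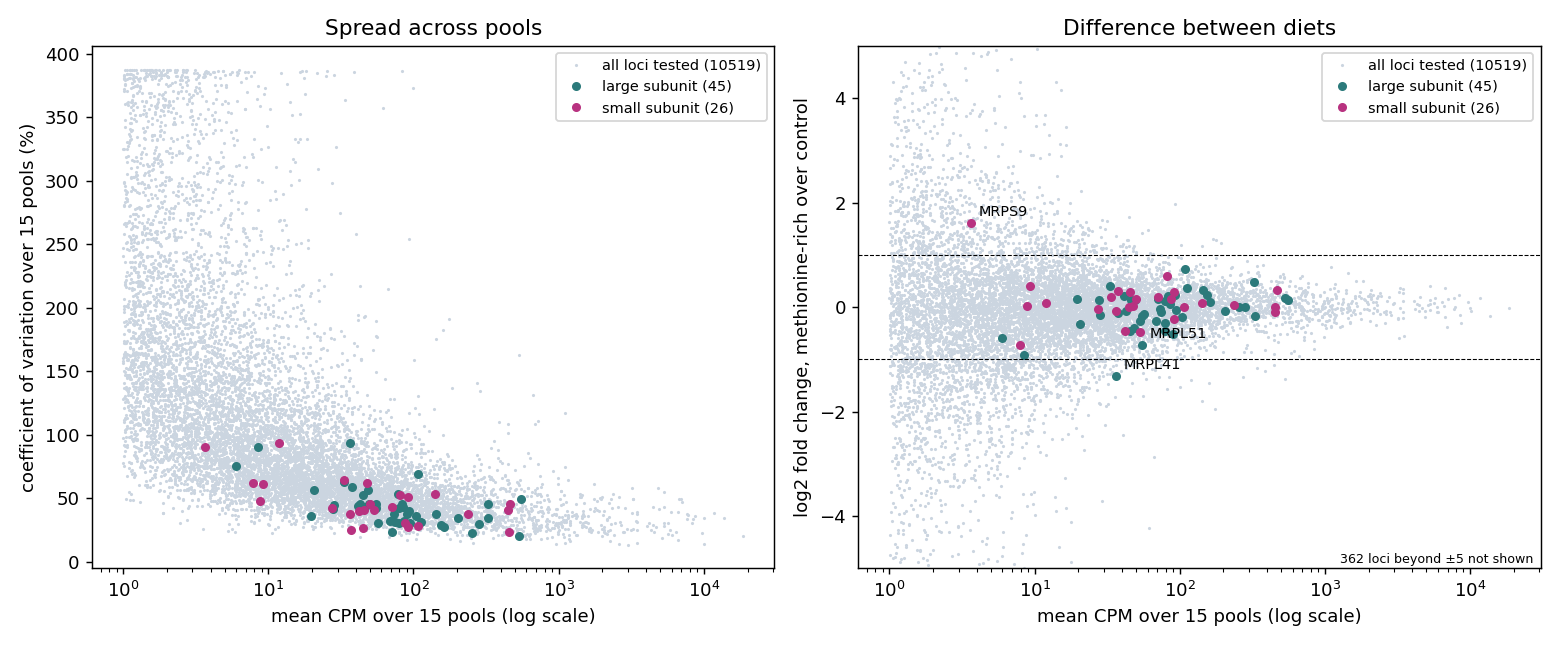
Left, CV of CPM over the 15 pools against mean CPM (log scale) for the 10519 loci tested (grey) and the 45 large- and 26 small-subunit genes. Right, log2 fold change of methionine-rich over control against mean CPM, with dashed lines at 2-fold. The members lie in the lower part of the cloud on the left, and 69 of 71 lie within 2-fold on the right.

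To ask whether the maternal diet went with a difference in these genes, the methionine-rich and control pools were compared by the exact test of edgeR, fitted on all 10519 loci. No member was differentially expressed (FDR under 0.10 and at least 2-fold), where 1.05% of all loci tested were. The quasi-likelihood test of edgeR called no member either, with a background of 0.0%. DESeq2 called none of them against 0.637% of all loci, and limma with the cow as a random effect none against 0.0%. At an unadjusted p under 0.05, 2 of 71 members (2.82%) passed the exact test against 8.54% of all loci, and 2 passed the quasi-likelihood test against 8.64%. They were MRPL41 and MRPL51 in both tests, each lower in methionine-rich pools. The count of 2 in the exact test became 0 without cow 1 or cow 6, 3 without cow 3 and 0 when the pools of each cow were summed. These p-values measure the spread between pools and leave aside that 2 pools came from each cow, with 1 left for cow 3.

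The median log2 fold change of the members, methionine-rich over control, was 0.01, with quartiles of -0.17 and 0.20. For all loci tested the median was -0.05. The value was above 0 in 38 members and below 0 in 33. Within 2-fold lay 69 members, 97.2%, against 75.3% of all loci tested. At least 2-fold differences were estimated for 2 members, MRPL41 and MRPS9, that is 2.82% against a background of 24.7%. Neither these shares nor those of called loci are matched for level. The median of the mean CPM was 70.7 for the members and 11.6 for all loci tested. The standard error from DESeq2 had a median of 0.338 and ranged from 0.20 to 1.09 over the members. The smallest difference that the tests could detect was not measured. MRPL41 was not called at a log2 fold change of -1.32 (exact test FDR 0.367). A refit limited to loci reaching 10 counts in each pool, as 69 members did, called 0 loci of any kind. The lack of called members therefore does not exclude differences near 2-fold.

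The median log2 fold change was -0.04 in the large subunit, with 21 genes above 0 and 24 below. In the small subunit it was 0.05, with 17 above and 9 below. Without cow 4 the small-subunit median was 0.22. The 10 small-subunit genes found only in mitochondria had a median of 0.11, with 9 above 0, and the 16 such genes of the large subunit had a median of -0.13, with 6 above 0. The 41 members with a bacterial counterpart had a median of 0.00, with 20 above 0. None of these groups held a gene that was called. For all loci tested, 4888 values were above 0 and 5631 below. The 10 small-subunit genes ran from -0.46 to 0.33, where the median DESeq2 standard error of the members was 0.338. Genes measured in the same pools are not replicates, so these counts are a description.

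MRPL41, a large-subunit protein found only in mitochondria, had the largest estimated decrease. Among the control cows, cow 1 had 134 and 72.9 CPM in its pools, cow 2 had 10.7 and 14.2, cow 3 had 28 in its remaining pool, and cow 4 had 61.8 and 47.7. Among the methionine-rich cows, cow 5 had 48.2 and 16.1 CPM, cow 6 had 5.18 and 8.41, cow 7 had 22.5 and 24.5, and cow 8 had 8.77 and 43.1. The highest values were those of cow 1 and the ranges overlapped. The log2 fold change was -1.32 (DESeq2 estimate -1.31, SE 0.56), with an edgeR exact test p of 0.02 and an FDR of 0.367. With each cow left out in turn it lay between -1.71 and -0.57, the latter without cow 1 (exact test p 0.346).

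MRPL51, also a large-subunit protein of mitochondria only, had 58 and 56.4 CPM in the pools of cow 1, 115 and 69 in those of cow 2, 57 in that of cow 3, and 42.5 and 93.1 in those of cow 4. On the methionine-rich diet it had 47.7 and 46.2 CPM for cow 5, 35.7 and 48.6 for cow 6, 59.4 and 25.5 for cow 7, and 28.8 and 47 for cow 8. The pools overlapped, because the first pool of cow 7 lay above 4 control pools. The log2 fold change was -0.73 (DESeq2 estimate -0.72, SE 0.29), with an exact test p of 0.0471 and an FDR of 0.572. With each cow left out in turn the exact test p lay between 0.0529 and 0.185. The highest value was in C2.1, the pool with the leukocyte markers, and without it the log2 fold change was -0.51 (exact test p 0.177). On cow means, after TMM normalization, the control cows had 59.1 to 91.6 CPM and the methionine-rich cows 40.8 to 47.8 CPM, with no overlap.

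MRPL46, a large-subunit protein related to a family of nucleotide hydrolases, had 65.2, 106 and 146 CPM in control pools and 31.7, 72.4 and 111 CPM in methionine-rich pools. The pools overlapped, while the cow means did not, with 96.3 to 137 CPM in control cows and 67.9 to 78 CPM in methionine-rich cows. The log2 fold change was -0.51 (DESeq2 estimate -0.50, SE 0.29), with an exact test FDR of 0.82. MRPL46 and MRPL51 were the 2 members whose 4 control cows all lay above the 4 methionine-rich cows, 2.82% of the members against 1.22% of all loci tested. No member had every methionine-rich cow above every control cow, against 1.2% of all loci.

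In a two-sided exact permutation test on the mean log2 CPM of each cow, with 70 possible assignments of cows to diets, 3 of 71 members (4.23%) reached 0.02857, the smallest p possible, against 2.37% of all loci tested. These were MRPL46, MRPL51 and MRPS18A. Adjusted over all loci tested, their p was 1. No other locus had a lower adjusted p, so the adjusted test set no locus apart. The smallest p is reached where cow means do not overlap on the log scale, so it restates the overlap above on another scale. MRPS18A had a log2 fold change of -0.73 (DESeq2 estimate -0.72, SE 0.50), which was -0.38 without cow 1 and -1.34 with all 16 pools. Its pools overlapped and so did the cow means of its CPM, which were 6.99 to 14.6 in control and 3.44 to 8.68 in methionine-rich cows, unlike its cow means on the log scale. MRPL23 had the second largest decrease, with 2.67, 8.08 and 30.9 CPM in control and 1.39, 4.48 and 14.2 CPM in methionine-rich pools. Its log2 fold change was -0.92 (DESeq2 estimate -0.91, SE 0.59) with an FDR of 0.866, and its lowest pool held 10 counts. Without cow 1 it was -0.25, and with each other cow left out it lay between -1.25 and -0.74.

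**Figure D4:**
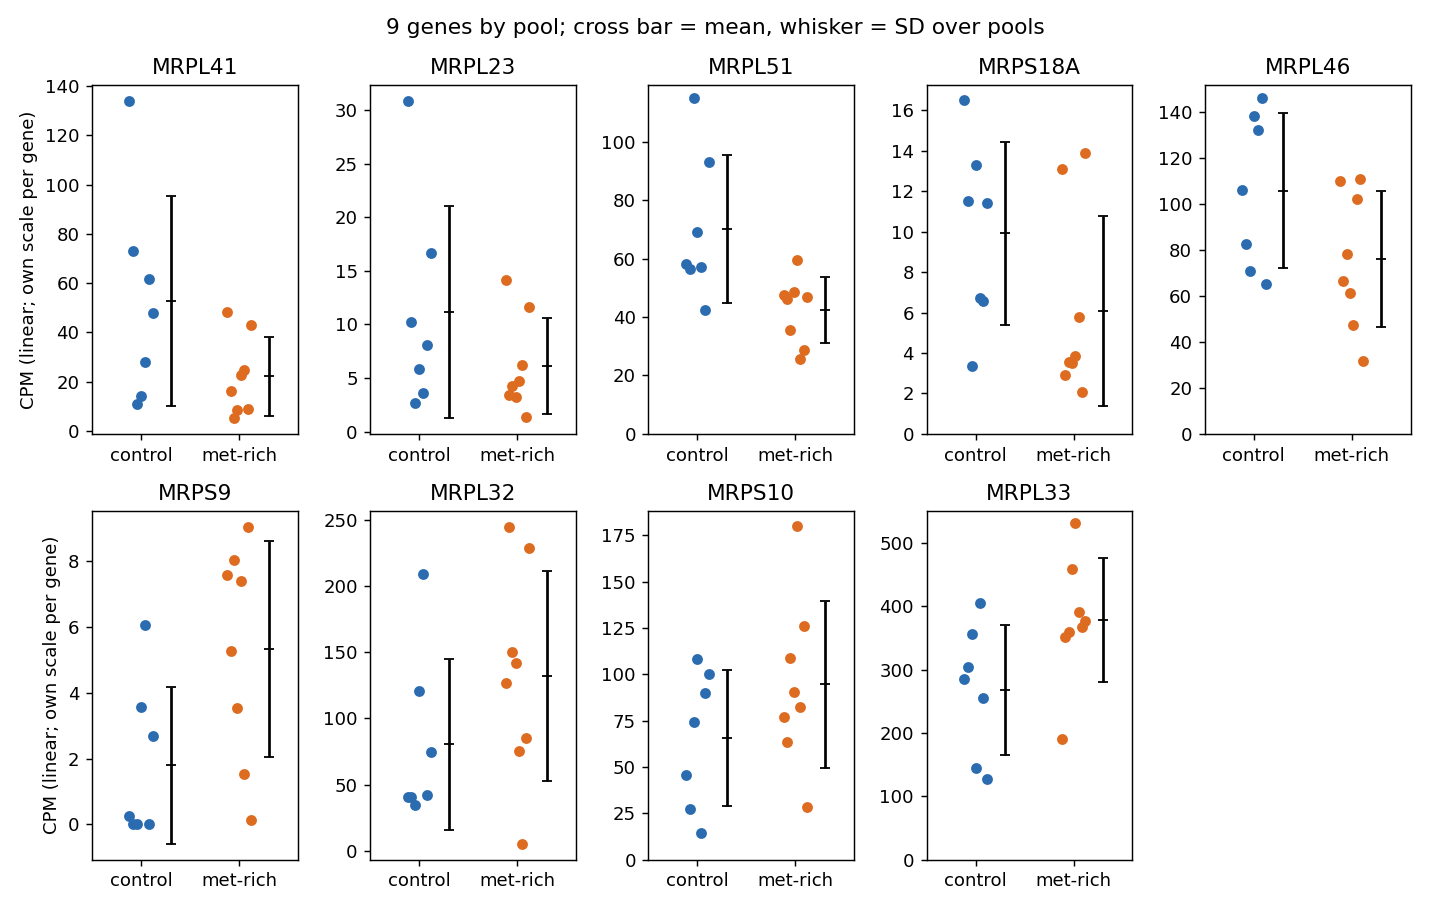
CPM in each control and methionine-rich pool (points), with mean and SD over pools, for 5 genes with estimates lower (top) and 4 with estimates higher (bottom) in methionine-rich pools. Each gene has its own linear axis, and the 2 diets overlap in all 9.

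The largest estimated increase was that of MRPS9, whose bacterial counterpart reaches the transfer RNA in the small subunit. The control pools held 2 and 0 counts in cow 1, 0 and 23 in cow 2, 45 in cow 3, and 0 and 21 in cow 4. The methionine-rich pools held 55 and 40 counts in cow 5, 59 and 21 in cow 6, 58 and 10 in cow 7, and 65 and 1 in cow 8. Pools near 0 and pools above 20 counts occurred in both diets. The log2 fold change was 1.61 (DESeq2 estimate 1.65, SE 1.09), with an exact test p of 0.163 and an FDR of 0.855. Without cow 3, whose only pool here is C3.1, it was 2.46 (exact test p 0.0498, FDR 0.552), and limma with the cow as a random effect gave 2.70 (unadjusted p 0.0319, adjusted p 0.993).

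MRPL32 had 35, 42.2 and 209 CPM in control and 5.32, 134 and 245 CPM in methionine-rich pools, and its log2 fold change was 0.73 (DESeq2 estimate 0.75, SE 0.54) and an FDR of 0.856. The methionine-rich range held the control range within it. The log2 fold change of MRPL32 was 1.25 without cow 3 (exact test p 0.0184, FDR 0.354), 1.04 without cow 7 (exact test p 0.0223, FDR 0.422) and 0.40 with the pools of a cow summed. MRPS10, a protein of the head of the small subunit, had 14.3, 74.5 and 108 CPM against 28.5, 86.4 and 180 CPM, with a log2 fold change of 0.59 (DESeq2 estimate 0.61, SE 0.44) and an FDR of 0.884. With each cow left out the value of MRPS10 lay between 0.33 (without cow 7) and 0.89 (without cow 4). MRPL33 had 128, 285 and 406 CPM against 190, 372 and 531 CPM, with a log2 fold change of 0.49 (DESeq2 estimate 0.49, SE 0.33) and an FDR of 0.86. The plot of 9 genes by pool shows the overlap of each.

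Some members are known as disease genes or for their place in the ribosome. MRPL12, part of the stalk that binds the translation factors, had 97.6, 162 and 216 CPM in control and 117, 175 and 265 CPM in methionine-rich pools, and its log2 fold change was 0.10 (DESeq2 SE 0.20). MRPL3, near the site of peptide bond formation, had 10.4, 17.8 and 61.3 CPM against 13.6, 18.7 and 21.1 CPM, and MRPL44, mutated in a cardiomyopathy, had 17.5, 52.5 and 61.8 CPM against 15.5, 50 and 95.5 CPM. MRPS12, at the decoding site, had 16.9, 38.4 and 60 CPM against 15.6, 33.8 and 54.7 CPM. The diets overlapped in each of them.

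MRPS22, mutated in a mitochondrial disease of infancy, had 27.2, 67.4 and 129 CPM in control and 50.7, 69.2 and 133 CPM in methionine-rich pools. MRPS16 had 20.1, 30.4 and 46.6 CPM against 26.3, 43.5 and 47.3 CPM, with a log2 fold change of 0.31 (DESeq2 estimate 0.32, SE 0.24) and an FDR of 0.998. The diets overlapped in both genes.

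Proteins that form or dock the mitochondrial ribosome and carry other names were counted as a list of 8 genes, all of them tested. None was called by either edgeR test, and none had an unadjusted p under 0.05. AURKAIP1, a small-subunit protein, had diet medians of 362 CPM in control and 403 CPM in methionine-rich pools. GADD45GIP1, a large-subunit protein, had 76.8 and 65.1 CPM. OXA1L, the inner-membrane insertase that docks the ribosome, had 31.6 and 63.1 CPM and a log2 fold change of 0.37 (DESeq2 SE 0.34). The median CV of this list was 49.3%.

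Of 23 assembly factors of the mitochondrial ribosome, 21 were tested, and of the translation factors all 13. No gene of these lists was called by either edgeR test or had an unadjusted p under 0.05 in the exact test. Among the assembly factors, NGRN had diet medians of 159 CPM in control and 190 CPM in methionine-rich pools, and DDX28, an RNA helicase, had 63.7 and 80.6 CPM. Of the translation factors, the elongation factor TUFM had 227 and 258 CPM and the initiation factor MTIF3 had 122 and 125 CPM. The median CVs of the lists were 68.2% and 67.7%, against 42.5% for the members.

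Of 18 mitochondrial tRNA synthetases, 16 were tested and none was called by either edgeR test. WARS2, which charges the tryptophan tRNA, had medians of 167 CPM in control and 120 CPM in methionine-rich pools. The tyrosine enzyme YARS2 had an unadjusted exact test p of 0.0447 and an FDR of 0.558, with medians of 1.24 and 0.0 CPM. Of 17 genes of mitochondrial DNA maintenance and transcription, 16 were tested and none was called. The binding protein of single-stranded DNA, SSBP1, had 414 and 417 CPM, and MTERF, a transcription termination factor, had 2.96 and 0.647 CPM with an unadjusted p of 0.0094 and an FDR of 0.27. Counts at or under the floor occur in both YARS2 and MTERF. In each of these lists 1 of 16 genes (6.25%) had an unadjusted p under 0.05, against 8.54% of all loci tested.

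Pool C3.2, left out above, gave another picture of the members. They summed to 5652.0 CPM there, below every other control pool, and the large to small ratio was 2.65, above every other pool. Of the 71 members, 42 lay below all 7 other control pools, 17 between and 12 above. For all loci tested, 42.2% lay below and 12.1% above, and as shares both counts of members were larger than these. A locus without counts in some of the 7 pools cannot lie below them all, which lowers the 42.2%. Nearly all members had counts in each of these pools, so the shares lying below are not comparable. The members at 3 counts or fewer numbered 10, and a floor of 3 counts was worth 1.719 CPM in this pool.

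The members above all other control pools included MRPS30, with 402 CPM against a median of 21 CPM in the 7 pools, 19.1 times as high. MRPL24 had 581 CPM against 96.6 CPM and MRPL19 had 244 CPM against 23.5 CPM. MRPS21 and MRPL33, among the most-read genes of the other pools, had 6.88 and 9.74 CPM. Within the pool, high and low members were found in both subunits.

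**Figure D5:**
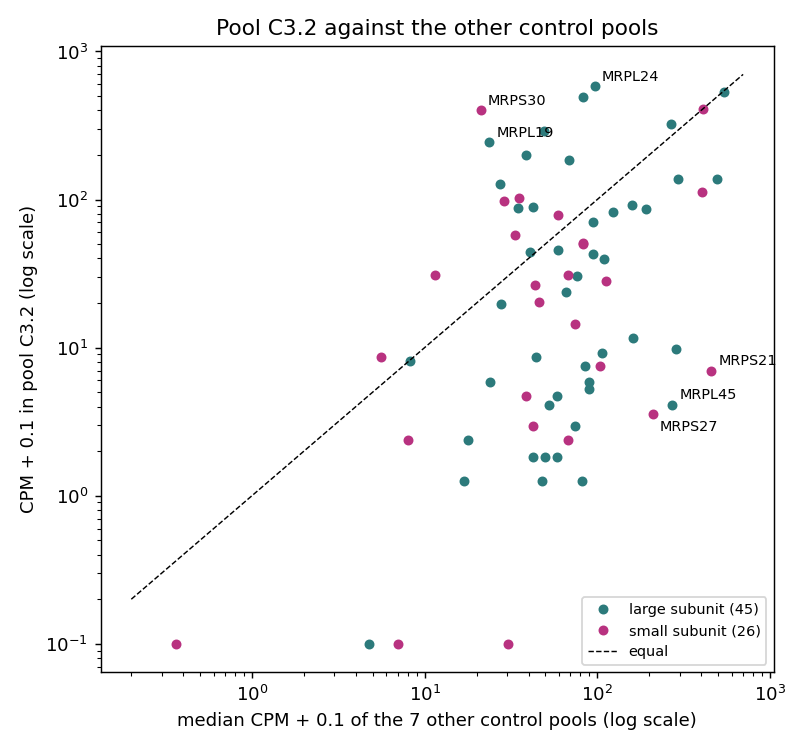
CPM plus 0.1 of each member in pool C3.2 against its median over the 7 other control pools, both on log scales, with the line of equal values. Of the 71 members, 12 lie above all 7 pools and 42 below all of them, where 12.1% and 42.2% of all loci tested do. The shares lying below are not comparable.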

How the data were processed

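Gene counts of 16 blastocyst pools were used, in 1 table per pool. The authors mapped the reads to bosTau7 with TopHat2 2.0.4, assembled transcripts with Cufflinks 2.0.2 and used htseq-count for the reads of each gene, and the deposited values are whole-number counts without normalization. Each of 22358 loci was entered once, and the members are the 71 loci whose name matches MRPL or MRPS and a number. CPM are counts over the pool total. With R 4.3.3 and edgeR 4.0.16, loci with a summed CPM of at least 15 over 15 pools were kept, normalized by TMM, and compared by the exact test after common and tagwise dispersion, with Benjamini-Hochberg adjustment over all of them. Log2 fold changes are for methionine-rich relative to control pools. The quasi-likelihood test, DESeq2 1.42.0 (also for standard errors) and limma 3.58.1 with the cow as a random effect were run beside it. Fits were tested on simulated data with 200 changed genes. The simulated pools were independent, and their dispersion was lower than the common dispersion of 1.142 in these data. That check therefore does not measure how the fits perform on these data. Cow values average the pools of a cow, for single genes after TMM normalization and for sums in plain CPM.

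The members, the lists and the tests were chosen with earlier results of these data known. Genes were named by rule: the 5 highest and 3 lowest members of each subunit by median CPM, the 5 highest and 5 lowest CVs among members with a median of at least 50 counts, members whose cows do not overlap, the 4 largest changes each way, and a fixed group (MRPL12, MRPL3, MRPL44, MRPS12, MRPS16, MRPS22, MRPS18A, MRPS18B, MRPS18C and MRPS30). MRPL24 and other members listed for pool C3.2, MRPS15 and the pairs of members were named after their values were seen. From other lists, up to 3 genes with the highest median were named, besides those with an unadjusted p under 0.05. Marker lists of cumulus and endometrial cells reached at most 69 and 26 CPM in a pool. RefSeq names came from the assembly ARS-UCD2.0, whose build differs from that of the files, so its positions served only to find members whose span overlaps that of another gene. Transcript lengths and sequences were not used here.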

Additional observations from a re-analysis of the deposited data

Results flagged for a closer look

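In 9 of 72 groups of pools (the named members, the sums and the ratio, in each diet), the highest or lowest pool lay far from the others by Dixon's criterion, which chance gives in about 1 of 20 groups of independent, normally distributed values. The CPM of single genes are skewed and the groups share pools, and the chance rate for them was not measured. The ratio of large- to small-subunit reads was 2.13 in M8.2, against 1.86 in the next methionine-rich pool. In the same pool, MRPS26 had 1149.2 CPM, the next value being 595 CPM, and MRPS31 had 115 CPM, the next being 54.9 CPM. MRPL12 had 265 CPM in M5.1 against 184 CPM in the next pool, and MRPS22 had 133 CPM in M8.1 against 82.3 CPM. Among control pools, MRPS18C had 884 CPM in C4.1 against 508 CPM in the next, and MRPL3 had 61.3 CPM in C4.2 against 22.2 CPM. Pools C4.1, C4.2 and M8.2 held 1 blastocyst each, and the part of this in their values was not tested. MRPL53, one of the steadiest genes, had its lowest control value of 156 CPM in C2.2, the next being 235 CPM, and its lowest methionine-rich value of 99.5 CPM in M7.1, the next being 232 CPM.

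In pool C3.2, which enters no comparison, 12 of the 71 members lay above all 7 other control pools. Of all loci tested, 12.1% did so as well. The 12 members were MRPL1, MRPL19, MRPL24, MRPL28, MRPL35, MRPL38, MRPL42, MRPL43, MRPL53, MRPS2, MRPS18A and MRPS30.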

How the results depend on the processing

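No member was called under any alternative. The count of all loci called, 110, was 356 with all 16 pools, 55 without a filter beyond 1 count, 67 by DESeq2, 64 without pool C2.1 (an alternative chosen after seeing the data), and 0 with at least 10 counts in every pool, by the quasi-likelihood test, with a replicate block for the pool number, with the number of blastocysts as a covariate and by limma with the cow as a random effect. With each cow left out it ran from 62 to 153. The count of members with an unadjusted p under 0.05, 2, was 0 with the pools of a cow summed and 0 to 3 with each cow left out. It was 1 when relative log expression replaced TMM as the normalization for the exact test, and 2 by DESeq2 itself. It was also 1 without a filter, without C2.1 and with the number of blastocysts as a covariate. In the last of these the member was MRPS26, higher in methionine-rich pools (log2 fold change 0.64, quasi-likelihood test p 0.035, FDR 0.454). By the same test, MRPL41 (p 0.155) and MRPL51 (p 0.0852) did not pass there. The 2 members whose cows did not overlap became 1 with all 16 pools and 0 when pools took the place of cows. The median log2 fold change of the small subunit ran from 0.01 to 0.22 with each cow left out, the latter without cow 4. The summed large-subunit reads differed by 0.04 (log2, methionine-rich over control), and by -0.07 as a mean of log2 CPM over genes. The median CV was 48.7% with all 16 pools, and the median SD of log2(CPM + 1) was 0.59. The other summaries stayed within their spread, and the cause of the changes was not tested. Pools of the same number did not deviate together (mean correlation -0.072, against -0.063 for other numbers), so the block pairs nothing. The ratio of the subunits was not run with TMM, which cancels within a pool, nor with mean log values. Depth limits MRPS9, MRPL49, MRPL23 and MRPS15 most, with 0, 6, 10 and 10 counts in their lowest pools.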

Other observations

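Across the 15 pools, the members showed little tendency to rise and fall together. The Spearman correlation of log2 CPM had a median of 0.04 over the 2485 pairs of members, from -0.82 to 0.88. The mean correlation of a member with the other members had a median of 0.05, and with loci of the same mean CPM a median of 0.0. These points share a library, its depth and its total, and the pairs share genes, so the values are a description. MRPL35 and MRPS33 were the closest pair (0.88), and other close pairs were MRPS18A with MRPL23 (0.87) and MRPL41 with MRPL23 (0.85). MRPL41, MRPL23 and MRPS18A were each highest in pool C1.1, with 134, 30.9 and 16.5 CPM. MRPL37 and MRPL53 were the farthest apart (-0.82). These pairs were picked after their values were seen.

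The pools differed in how many members peaked in them. Pool C4.2 held the highest value of 10 members (14.1%), a share near that of all loci tested. Pool M6.2 held the highest value of 8 members, 11.3% against 3.75% of all loci, and C1.1 that of 7, 9.86% against 4.14%. The lowest values were most often in M8.2, with 14 members, 19.7% against 9.14% of all loci. Each locus was credited to a single pool, and a tie at the lowest value went to the earliest pool in order. M8.2 comes last, so it was credited only where no other pool was as low. Loci without counts in several pools lower its 9.14%. Few members lacked counts in any pool, so the shares of lowest values are not comparable. C3.1 held the highest value of 0 members, against 4.72% of all loci. These shares are descriptions and were not tested.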
